A study of Mus musculus with 2 samples.

Results

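The genes described here encode the proteins of the mitochondrial ribosome. They were taken from the deposited table by symbol, as every gene named Mrpl or Mrps followed by digits and at most 1 letter, which gave 78 of 51826 listed genes. Of these, 51 belong to the large subunit, 26 to the small subunit, and 1, Mrps36, carries the name but is now placed in an enzyme complex. All 78 averaged 1 TPM or more, so none dropped out through a filter on low values. TPM, transcripts-per-million, is a read number per unit of gene length, scaled so that every library has the same total.

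Mitochondrial ribosomes sit in the mitochondrial matrix and translate the few mRNAs of the mitochondrial genome, all of which code for subunits of the oxidative phosphorylation complexes. Their rRNAs come from mitochondrial DNA, whereas every one of their proteins is encoded in the nucleus, made in the cytosol and imported. Part of the proteins descend from those of the bacterial ribosome, and the others are additions of mitochondria. Mutations of several members cause human diseases of oxidative phosphorylation. Embryonic stem cells lean on glycolysis and have immature mitochondria.

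RNA came from 2 cultures of v6.5 mouse embryonic stem (ES) cells, 1 labelled WT (wild-type) and 1 labelled T29I, each giving 1 library. Both carry the strain label NBA1-19349, and the labels name no treatment or passage and do not say whether the mutated cells are 1 clone. Total RNA was depleted of ribosomal RNA before stranded libraries were made. The study compared wild-type ES cells with ES cells into which a mutation of the PRSS1 gene, a trypsinogen gene of the pancreas, had been introduced. Mouse Prss1 had 0 TPM in either library, so its level checks neither label. With 1 library per group nothing is replicated, "higher" and "lower" describe these 2 libraries, no p-value is given, and genotype, clone, culture and library preparation cannot be told apart.

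Where 2 TPM values follow a gene name, the first is that of the wild-type library and the second that of the T29I library. Both libraries expressed the genes that define ES cells, with Pou5f1, which encodes Oct4, at 1722 and 1454 TPM and Sox2 at 563 and 355 TPM. The summed level of 10 ES markers was 11257 TPM in wild-type cells and 7664 TPM in T29I cells. Lower in the latter were 9 of the 10, as were 9249 of all 12943 genes averaging 1 TPM or more. Among the 9 were Nanog at 765 and 140 TPM and Zfp42 at 544 and 23.3 TPM, whereas Utf1, at 972 and 2459 TPM, was higher. Trophoblast markers summed to 126 and 898 TPM over 10 genes, mostly through Tfap2c in wild-type cells and through Krt8 and Krt18 in T29I cells. Of the 7 that averaged 1 TPM or more, 5 were higher in T29I cells. Among these were Hand1 at 0.868 and 79.5 TPM, Krt7 at 0.410 and 15.2 TPM and Plac1 at 0 and 4.56 TPM. Tfap2c at 73.4 and 53.1 TPM and Eomes at 6.21 and 2.19 TPM were lower. Cdx2 and Elf5 were below 1 TPM in both libraries. Fibroblast markers summed to 413 and 197 TPM over 10 genes, mostly through Fn1 at 233 and 26.2 TPM and Vim at 172 and 139 TPM. Acta2 at 1.51 and 12.1 TPM and Thy1 at 4.57 and 17.6 TPM were higher in T29I cells, while Col1a2 and Col3a1 were below 1 TPM and Lum was at 0 in both. Primitive endoderm markers summed to 52.9 and 9.75 TPM over 10 genes, with Gata4, Gata6 and Sox17 below 1 TPM in both. Erythroid markers summed to 2.47 and 1258 TPM over 10 genes, nearly all from Hbb-bs. The part of these differences in the values below was not tested. In such bulk samples fewer cells of a type and less RNA per cell cannot be told apart.

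Most genes had lower TPM in the T29I library. The log2 ratio was formed as T29I minus wild-type in log2(TPM + 1), and its median was -0.90 over the 9375 genes averaging 5 TPM or more, and this value is called the shift. Ratios are given relative to it, that is, after subtracting it. The difference between the libraries followed transcript length and GC content across all genes. A second value, called adjusted, is therefore the residual of a fit of the log2 ratio on the length and GC content of the longest annotated transcript. A gene is called 2-fold up or 2-fold down where the value in question reaches a factor of 2.

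Mitochondrial ribosomal protein genes stood higher in the T29I library than most genes did. Their TPM was higher there for 44 of the 78 and lower for 34, whereas 28.5% of the 12943 genes averaging 1 TPM or more were higher. The median member was at 68.5 TPM in wild-type cells and 67.8 TPM in T29I cells, so the middle of the group hardly differed as deposited. Relative to the shift, 42 of the 78 were 2-fold up, against a share of 26.0% among all genes, and 4 were 2-fold down, against 22.2%. Their median was 1.06, with quartiles of 0.21 and 1.64, beside 0.055 for all genes. After adjustment 27 were 2-fold up and 5 were 2-fold down, against 17.6% and 15.5% of all genes, and the median came to 0.59. As deposited, 10 members were 2-fold up and 10 were 2-fold down, against 9.97% and 45.7% of all genes.

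The sum over the 78 members was 6308 TPM in wild-type cells and 8297 TPM in T29I cells, a ratio of 1.32. That difference rested in part on a few members. Without the 5 most abundant ones the log2 ratio of the sums was 0.20 instead of 0.40, and without the 11 members on chromosome 11 it was 0.16. In reads, the members took 0.467% of the wild-type library and 0.767% of the T29I library. Single members had an estimated 152 to 4973 reads in the wild-type library and 123 to 9350 in the T29I library. For most members the libraries differed by more than counting error. The 95% counting interval of the log2 TPM ratio lay above 0 for 41 members, below 0 for 33 and across 0 for 4. Set against the shift, it lay above for 61 members, below for 9 and across for 8. Such counts were not made for all genes, and these intervals cover counting error only.

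**Figure D1:**
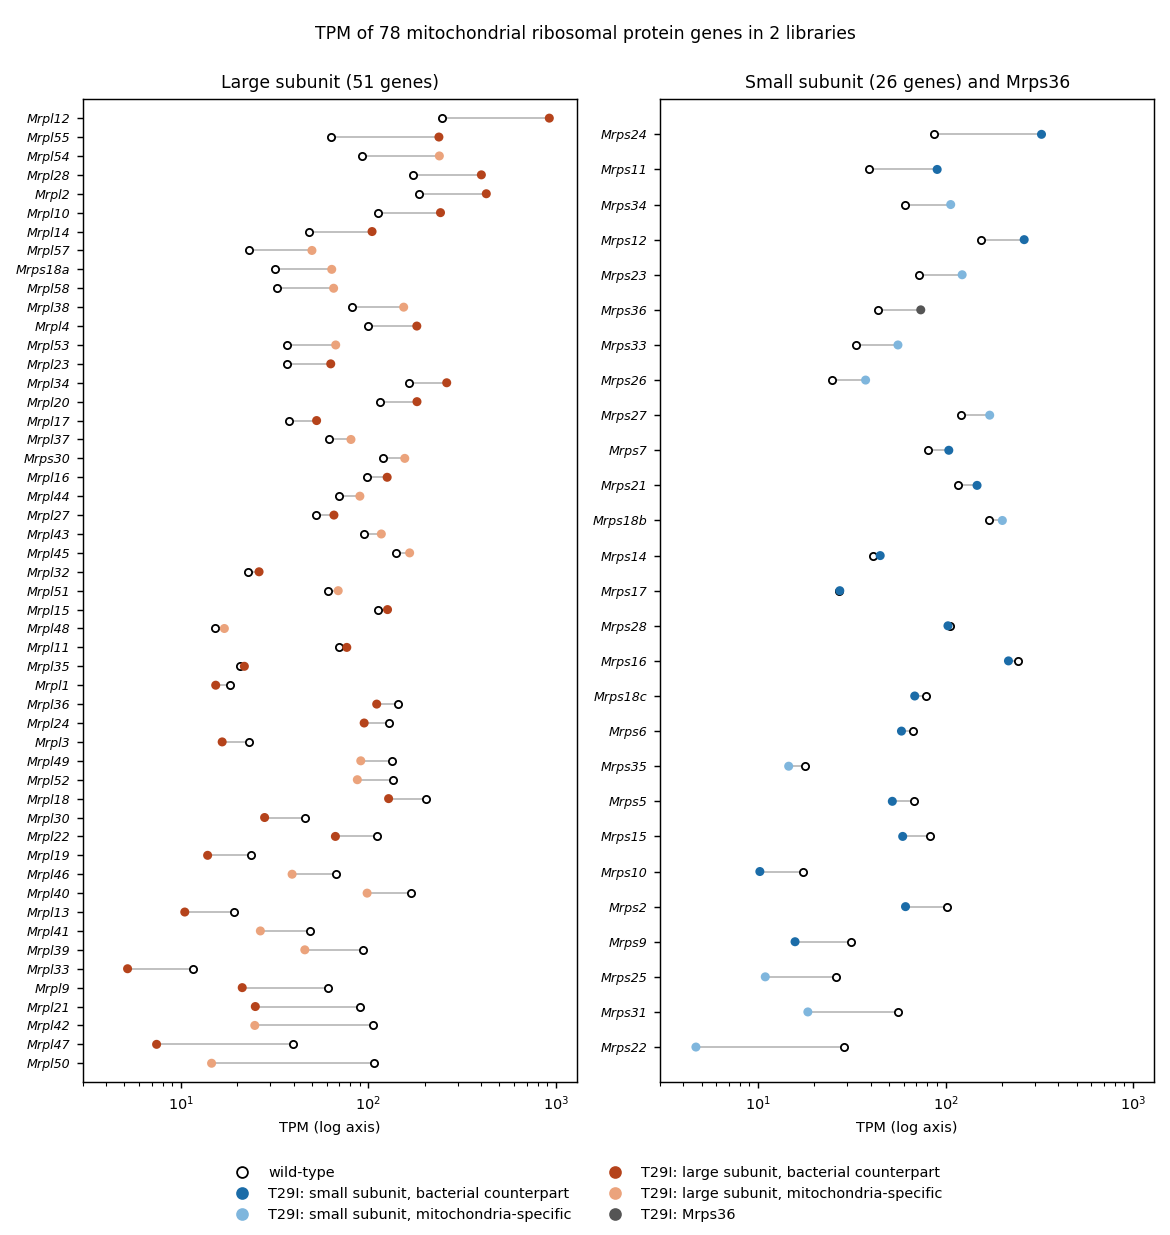
TPM of each of the 78 members in the wild-type library (open circles) and the T29I library (filled circles, coloured by subunit and origin), on a log axis, sorted by ratio within each panel. Of the large-subunit genes 30 were higher and 21 lower in the T29I library, and of the small-subunit genes 13 were higher and 13 lower.

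The members spread further apart in the T29I library. In the wild-type library they ranged from 11.6 TPM for Mrpl33 to 248 TPM for Mrpl12, 21.4-fold, and in the T29I library from 4.67 TPM for Mrps22 to 924 TPM for Mrpl12, 198-fold. The ratio of the upper to the lower quartile was 3.02 in wild-type cells and 4.73 in T29I cells. The SD of log2 TPM over members was 1.07 and 1.57. The order of the members was kept in part, with a Spearman's rho of 0.77 between the libraries across the 78 genes, which share both libraries and are not independent. Of the 78, 15 moved by at least 20 places, most of all Mrpl50, from place 22 to place 70, and Mrpl42, from 23 to 62, downwards, and Mrpl55, from 43 to 9, upwards.

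The sequences before the start sites of 5 members are shown because 4 of them form pairs, 1 member with a high and 1 with a low ratio, that hold the same promoter motif. Mrpl12 and Mrpl9 hold a match to the motif of NRF1, nuclear respiratory factor 1, an activator of many nuclear genes for mitochondrial proteins. Mrps18a and Mrps22 hold the core motif of ETS factors, the family of the respiratory activator GABP, and Mrps24, with the highest ratio of all members, holds the GC box of SP1. Each stretch is 120 bases of the RefSeq promoter on GRCm38.p6, placed so that it overlaps no annotated exon, written 5′ to 3′ on the strand of the gene, with capitals marking the motif matches on either strand. That of Mrps24 lies before the RefSeq start and inside an intron of a longer GENCODE transcript.
Mrpl12, chr11:120484493-120484612 on the + strand: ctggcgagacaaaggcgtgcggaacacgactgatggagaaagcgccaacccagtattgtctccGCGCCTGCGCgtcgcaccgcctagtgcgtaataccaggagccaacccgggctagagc
Mrpl9, chr3:94443198-94443317 on the + strand: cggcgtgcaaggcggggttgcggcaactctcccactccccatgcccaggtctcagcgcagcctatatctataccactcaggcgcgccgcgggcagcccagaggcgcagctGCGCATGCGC
Mrps18a, chr17:46110866-46110985 on the + strand: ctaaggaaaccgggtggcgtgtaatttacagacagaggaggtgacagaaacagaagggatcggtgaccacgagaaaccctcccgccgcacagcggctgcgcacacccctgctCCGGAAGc
Mrps22, chr9:98601680-98601799 on the - strand: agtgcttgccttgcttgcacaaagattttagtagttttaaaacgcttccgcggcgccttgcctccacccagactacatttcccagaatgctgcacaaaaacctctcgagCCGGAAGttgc
Mrps24, chr11:5707702-5707821 on the - strand: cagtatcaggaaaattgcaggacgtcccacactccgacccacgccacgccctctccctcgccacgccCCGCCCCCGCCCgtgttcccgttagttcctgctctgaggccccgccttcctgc

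The pairs were chosen for their ratios, so what follows describes them and says nothing of the motif. Mrpl12, with the NRF1 match, was at 248 and 924 TPM and had a log2 ratio relative to the shift of 2.79, whereas Mrpl9, with another, was at 60.8 and 21.3 TPM and -0.58. Mrps18a, with the ETS core, was at 31.7 and 63.9 TPM and 1.88, and Mrps22 was at 28.7 and 4.67 TPM and -1.50. Promoters of 300 bases, from 250 before to 50 after the start, were found for 69 of the 78 members. On either strand, the ETS core CCGGAAG was in the promoters of 26 of these 69, 37.7%, against 20.7% of 9338 protein-coding genes averaging 1 TPM or more, or, counted by promoter, 34.7% against 8.86% of all RefSeq promoters of that length. The NRF1 motif, GCGCA and GCGC with any base between them, was in 13, 18.8% against 11.8% (by promoter, 17.3% against 4.60%), and AAGATGGC, a core of the YY1 motif, in 12, 17.4% against 5.46% (by promoter, 12 of 75 against 2.75%). The SP1 box GGGCGG was in 34 members, 49.3% against 70.3% of expressed genes, but counted by promoter in 52.0% against 35.7% of all promoters. The letters CACGTG and TATAAA were in 5 members each, 7.25%, against 12.1% and 8.27% of expressed genes, and by promoter in 9.33% against 7.15% and in 6.67% against 13.6%. A promoter can hold several of these motifs, and their matches can overlap. A match is a stretch of letters and not a measured binding site. The median log2 ratio relative to the shift was 1.20 for members with the ETS core and 0.91 for those without, and 1.23 and 1.00 for NRF1. After adjustment these were 0.56 and 0.55, and 0.55 and 0.56. For the other motifs, the adjusted medians with and without a match were 0.73 and 0.30 for SP1, 0.70 and 0.49 for YY1, 0.63 and 0.52 for CACGTG and 1.70 and 0.46 for TATAAA, the last 2 over 5 members each.

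The stalk of the large subunit, which recruits translation factors, was among the highest groups in the T29I library. Mrpl12, the flexible stalk protein present in several copies per ribosome and encoded at chr11:120484613-120489065 (+ strand) of GRCm38, was at 248 TPM in wild-type cells (95% counting interval 237 to 259) and 924 TPM in T29I cells (905 to 943), 3.73-fold higher as deposited. It was the most abundant member in both. Mrpl10, which anchors Mrpl12 to the ribosome, was at 112 and 243 TPM, and Mrpl11, at the base of the stalk, at 69.4 and 76.8 TPM. All 3 were higher in the T29I library, with log2 ratios relative to the shift of 2.79, 2.00 and 1.04. Their adjusted values were closer together, at 1.38, 1.21 and 1.10. Mrpl1, the protein of the other, L1, stalk, was at 18.3 and 15.4 TPM, lower in the T29I library, and above the shift by 0.66.

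Core rRNA-binding proteins of the large subunit, some of which reach the centre where peptide bonds form, differed among themselves. Mrpl2, which binds the rRNA core, was at 186 and 426 TPM and Mrpl28 at 173 and 401 TPM, both more than 2-fold higher in the T29I library and the most abundant members there after Mrpl12. Mrpl4, also a core rRNA-binding protein, was at 99.4 and 182 TPM, and Mrpl14 at 48.3 and 105 TPM. Mrpl16 and Mrpl27, which reach towards the bound tRNAs, were at 98.2 and 126 TPM and 52.6 and 65.6 TPM. Mrpl3, whose bacterial counterpart extends to the peptidyl transferase centre, went the other way, at 23.3 and 16.6 TPM. Relative to the shift these 7 genes all lay above 0, from 0.44 for Mrpl3 to 2.11 for Mrpl28, but after adjustment Mrpl14 was at -0.16, and with the principal transcript in place of the longest Mrpl4 was at -0.18 and Mrpl14 at -0.11.

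At the polypeptide exit site, where nascent chains leave the ribosome towards the inner membrane, 3 of 5 members were lower in the T29I library. Among all genes averaging 1 TPM or more, 9249 of 12943 were lower. Mrpl47, the counterpart of bacterial L29, was at 39.5 and 7.44 TPM, at -1.37 relative to the shift, where only Mrpl50 and Mrps22 were lower, and -0.93 after adjustment, where 6 members were. Mrpl22 was at 111 and 66.8 TPM and Mrpl24 at 129.7 and 95.1 TPM, whereas Mrpl23 was at 37.0 and 63.1 TPM. Mrpl45, which contacts the inner membrane, was at 140.2 and 166 TPM. The group thus ran from -1.37 to 1.65 relative to the shift, and the value of Mrpl23 turned to -0.36 when adjusted on its principal transcript.

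The 7 genes counted here with the central protuberance, which faces the small subunit, split into 4 higher and 3 lower. Mrps30, a member of the large subunit despite its name, was at 119.9 and 157 TPM, Mrpl38 at 82.1 and 155 TPM, Mrpl27 as above and Mrpl48 at 15.2 and 17.1 TPM. Mrpl18, the counterpart of the bacterial protein that binds 5S rRNA, was at 203 and 128 TPM, Mrpl40 at 169 and 98.6 TPM and Mrpl46 at 67.0 and 39.3 TPM. All 7 lay above the shift, against 51.4% of all genes, from 0.12 for Mrpl40 to 1.80 for Mrpl38. Adjusted values ranged from -1.06 for Mrpl40 to 2.11 for Mrps30, and that of Mrpl38 was -0.094.

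The other bacterial-type proteins of the large subunit held members near both ends of the order. Mrpl55, the counterpart of bacterial L31, was at 63.6 and 238 TPM, 3.75-fold higher in the T29I library, with 2.78 relative to the shift and 1.72 after adjustment. Mrpl21 was at 90.4 and 25.0 TPM, 3.62-fold lower as deposited and the lowest of all members after adjustment at -2.00. Mrpl9 was at 60.8 and 21.3 TPM and -0.82 after adjustment. Of the small basic proteins Mrpl34 was at 165 and 262 TPM, Mrpl36 at 145 and 111 TPM, Mrpl32 at 22.98 and 26.2 TPM, Mrpl35 at 20.7 and 21.8 TPM and Mrpl33 at 11.6 and 5.21 TPM. Mrpl34, at 1.56 relative to the shift, came to -0.42 after adjustment, with a longest transcript of 607 bases. Mrpl32, Mrpl34 and Mrpl35 were thus higher and Mrpl33 and Mrpl36 lower in the T29I library. Mrpl20 was at 115 and 182 TPM, Mrpl15 at 113 and 127 TPM and Mrpl17 at 37.6 and 53.0 TPM, all higher in the T29I library. Mrpl13 at 19.2 and 10.5 TPM, Mrpl19 at 23.8 and 13.9 TPM and Mrpl30 at 45.9 and 28.0 TPM were lower, and lay between 0.087 and 0.20 relative to the shift.

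Of the 21 mitochondria-specific proteins of the large subunit, 13 were 2-fold up relative to the shift and 2 were 2-fold down. Among all genes the shares were 26.0% and 22.2%. Mrpl50, at chr4:49512596-49521093 (- strand), had the lowest ratio of all 78 members, with 108 TPM in wild-type cells (interval 102 to 114) and 14.6 TPM in T29I cells (12.7 to 16.8), 7.37-fold lower. Mrpl42 was at 107 and 24.8 TPM. Both stayed negative after adjustment, at -1.59 and -0.61. Mrpl54 was at 92.9 and 239 TPM, the highest ratio in this group at 2.25, but -0.10 after adjustment. Mrpl57 was at 23.2 and 50.1 TPM and Mrpl58, a peptidyl-tRNA hydrolase that frees stalled ribosomes, at 32.8 and 65.4 TPM, and both kept high adjusted values of 2.48 and 1.69. Mrpl53 was at 37.1 and 67.1 TPM, Mrpl44 at 70.2 and 90.2 TPM, Mrpl43 at 95.0 and 117 TPM, Mrpl37 at 61.7 and 80.9 TPM and Mrpl51 at 61.1 and 69.2 TPM, each higher in the T29I library. On the lower side were Mrpl39 at 93.3 and 45.9 TPM, Mrpl41 at 49.0 and 26.6 TPM, Mrpl49 at 135 and 91.2 TPM and Mrpl52 at 136 and 87.5 TPM, which ranged from -0.11 to 0.34 relative to the shift.

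In the small subunit, which binds the mRNA and reads its codons, the bacterial-type proteins of the mRNA path and decoding site diverged. Mrps24, the counterpart of bacterial S3 at the mRNA entry, encoded at chr11:5703983-5715680 (- strand), was at 86.6 TPM in wild-type cells (interval 80.1 to 93.5) and 325 TPM in T29I cells (314 to 336), 3.75-fold higher. Its ratio relative to the shift, 2.79, was the highest of all members, level with Mrpl12 within counting error, and its adjusted value was 1.41. Mrps5, its neighbour at the entry, was at 67.6 and 52.0 TPM and Mrps2 at 102 and 61.2 TPM, both lower in the T29I library. Mrps12, the counterpart of the S12 protein of the decoding centre, was at 155 and 263 TPM, with 1.65 relative to the shift but 0.020 when adjusted.

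The head and the platform of the small subunit also went both ways. In the head, Mrps7 was at 80.7 and 104 TPM and Mrps14 at 40.9 and 44.8 TPM, while Mrps9 was at 31.4 and 15.8 TPM and Mrps10 at 17.4 and 10.2 TPM. On the platform, Mrps11 was at 39.2 and 90.3 TPM and Mrps21 at 117 and 147 TPM, while Mrps6 was at 67.3 and 58.2 TPM and Mrps18c at 79.0 and 68.5 TPM. In the body, Mrps16, next to Mrpl12 the most abundant member of the wild-type library, was at 244 and 217 TPM, Mrps17 at 27.0 and 27.3 TPM and Mrps15 at 82.9 and 59.1 TPM. Mrps28, counted here with the bacterial-type proteins, was at 105 and 103 TPM. Of the 16 bacterial-type proteins of the small subunit, 15 lay above the shift, against 51.4% of all genes, and Mrps9 lay -0.057 from it. Of the 16, 6 were 2-fold up and none 2-fold down, against 26.0% and 22.2% of all genes.

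Among the 10 mitochondria-specific proteins of the small subunit, 6 were 2-fold up relative to the shift and 1 was 2-fold down. The shares among all genes were 26.0% and 22.2%. Mrps22, in which mutations cause a human oxidative phosphorylation deficiency, lies at chr9:98588730-98601660 (- strand) and was at 28.7 TPM in wild-type cells (interval 26.5 to 31.1) and 4.67 TPM in T29I cells (3.88 to 5.57), 6.16-fold lower, with an adjusted value of -1.32. Mrps31 was at 55.8 and 18.4 TPM and Mrps25 at 26.0 and 10.9 TPM. The higher genes were Mrps34, which stabilises the small subunit, at 60.9 and 107 TPM, Mrps23 at 72.5 and 123 TPM, Mrps27, a protein with pentatricopeptide repeats, at 121 and 172 TPM, Mrps33 at 33.2 and 55.8 TPM, Mrps26 at 24.7 and 37.5 TPM and Mrps18b at 170.1 and 201 TPM. Mrps35 was at 17.8 and 14.6 TPM. After adjustment Mrps34 came to -0.016, whereas Mrps33 and Mrps26 stayed at 1.61 and 1.87.

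The S18 family has 3 members that sit at different places, Mrps18a in the large subunit and Mrps18b and Mrps18c in the small one. They were at 31.7 and 63.9 TPM, 170.1 and 201 TPM and 79.0 and 68.5 TPM, so that Mrps18b was the most abundant in both libraries. Relative to the shift they stood at 1.88, 1.13 and 0.69, then after adjustment at 0.96, 0.12 and 0.63. Mrps36, a subunit of the 2-oxoglutarate dehydrogenase complex of the citric acid cycle rather than of the ribosome, was at 43.7 and 73.8 TPM, with 1.64 relative to the shift and 1.29 after adjustment, inside the range of the ribosomal members.

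Which subunit had the higher median ratio depended on the adjustment. Relative to the shift, the 51 large-subunit genes had a median of 1.07 and the 26 small-subunit genes 0.89, a difference of 0.18. After adjustment the order was turned, at 0.43 and 0.66. By origin, the 46 bacterial-type genes had medians of 0.94 and, adjusted, 0.66, and the 31 mitochondria-specific genes 1.14 and 0.43, again in opposite order. In summed TPM the bacterial-type large-subunit proteins took 41.0% of the members' total in wild-type cells and 49.0% in T29I cells. The other large-subunit proteins took 27.4% and 21.3%. No test was possible with 1 library per group.

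The level of a member depends on the length its reads were divided by. For 60 of the 78 members TPM multiplied by the merged length of all annotated exons gave whole numbers of reads, within 0.05, in both libraries, so merged exons are the length that the deposited TPM of these genes matches. Merged exons were a median of 1.37 times as long as the principal transcript, the isoform that APPRIS marks as the main one, and up to 15.3 times, for Mrpl33. Mrpl33, the least abundant member in the wild-type library at 11.6 TPM, would stand at 178 on its principal transcript. Mrpl42 would move from 107 to 589 and become the highest of the wild-type library, above Mrpl12 at 288. In the T29I library Mrpl12 remained highest on either length, at 924 and 1075. Spearman's rho between the 2 orders was 0.75 and 0.89 across the 78 genes in the 2 libraries. The plain TPM fold between libraries does not depend on this length. Ratios on log2(TPM + 1) do through the added 1, most of all at low TPM, and adjusted ratios use a transcript length. For Mrpl13 the adjusted ratio was 1.37 on the longest and -0.55 on the principal transcript. On TPM, the most abundant members by mean were Mrpl12, Mrpl2, Mrpl28, Mrps16 and Mrpl34, and the least abundant Mrpl33, Mrps10, Mrpl13, Mrpl48 and Mrps35.

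Members are short genes, and length and GC content moved with their ratios. Their longest annotated transcript had a median of 1866 bases, against 3101 for all genes, and a median GC content of 49.8%, against 50.2%. Across the 78 members Spearman's rho of the ratio was -0.30 with that length and 0.49 with GC content, and across 9100 protein-coding genes averaging 5 TPM or more -0.53 and 0.56. These are descriptions across genes that share both libraries. Of the 39 members with the higher GC content, 28 had higher TPM in the T29I library, and of the 39 with the lower, 16. The fit that gave the adjusted values accounted for 44.9% of the variance of the ratios across the 9100 genes.

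**Figure D2:**
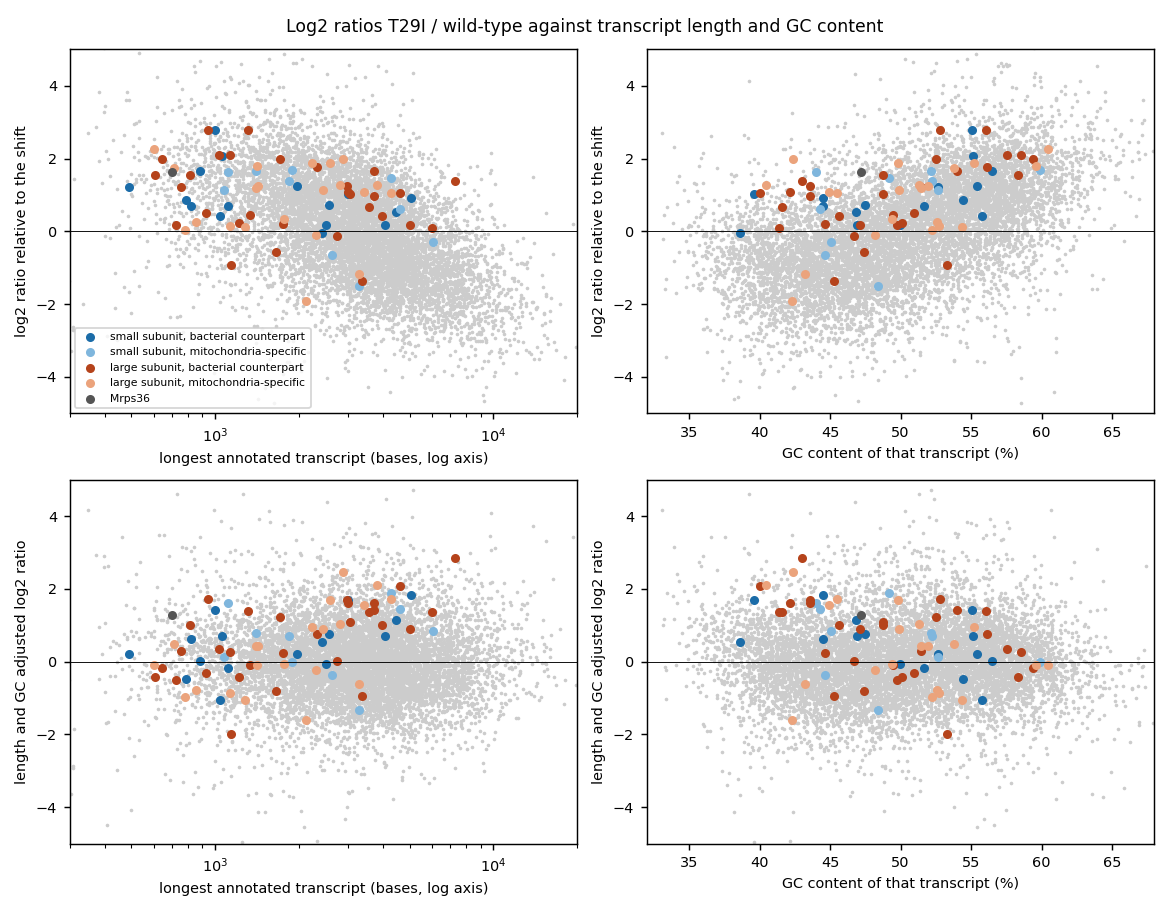
Log2 ratios of the 78 members (coloured by subunit and origin) and of 9100 protein-coding genes averaging 5 TPM or more (grey) against the longest annotated transcript in bases (left, log axis) and its GC content in percent (right), relative to the shift (top) and adjusted (bottom). Among members the adjusted ratio still followed length, with a rho of 0.51, in the opposite direction to the ratio relative to the shift.

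The adjustment removed the length trend of genes in general but not that of the members. Adjusted ratios of members still followed length, now upwards, with a rho of 0.51, and GC content downwards, with -0.41, while across the 9100 genes the same values were -0.023 and 0.024. The 39 members with the shorter transcripts had an adjusted median of 0.12 and the 39 with the longer 1.02, against 1.23 and 0.97 relative to the shift. With the principal transcript in place of the longest, the rho with length was 0.54, the median 0.41, and 26 members were 2-fold up and 6 were 2-fold down, against 17.2% and 14.9% of all genes. The highest adjusted values belonged to Mrpl17, Mrpl57, Mrps30, Mrpl15 and Mrps26, at 2.86, 2.48, 2.11, 2.09 and 1.87, all with longest transcripts of 2877 bases or more. The lowest belonged to Mrpl21, Mrpl50, Mrps22, Mrpl40 and Mrps15, at -2.00, -1.59, -1.32, -1.06 and -1.05.

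Members that were 2-fold up by all 3 measures, relative to the shift and adjusted on either transcript, numbered 17, against 10.1% of all genes. They were Mrpl10, Mrpl11, Mrpl12, Mrpl15, Mrpl17, Mrpl32, Mrpl48, Mrpl51, Mrpl55, Mrpl57, Mrpl58, Mrps14, Mrps24, Mrps26, Mrps30, Mrps33 and Mrps36. Mrpl50 and Mrps22 were 2-fold down by all 3, against 9.06% of all genes.

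Genes of comparable machines had similar median ratios before adjustment and lower ones after it. Relative to the shift, the 80 cytosolic ribosomal protein genes averaging 1 TPM or more had a median of 0.98 and the 75 nuclear genes for oxidative phosphorylation subunits 0.99, next to 1.06 for the 78 members. Of them, 39 and 37 were 2-fold up and 4 and 3 were 2-fold down, against 26.0% and 22.2% of all genes. After adjustment the medians were 0.19 and 0.016, next to 0.59. The longest transcripts of these groups had medians of 1076 and 1046 bases, shorter than those of the members. Adjusted ratios of members still rose with length, and the 39 members with the shorter transcripts had an adjusted median of 0.12. The difference between the groups was not tested.

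**Figure D3:**
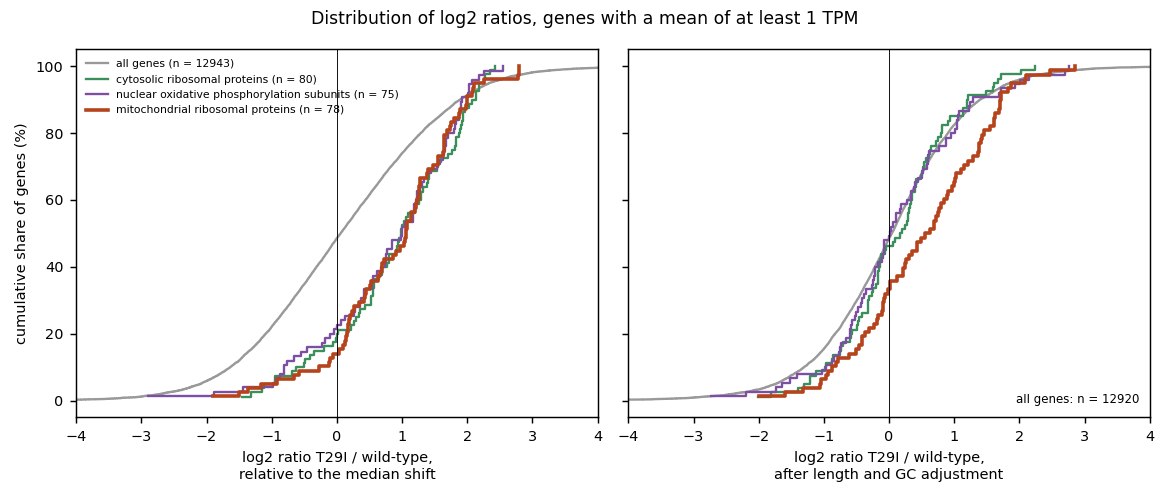
Cumulative share of genes, in percent, against the log2 ratio (T29I over wild-type) relative to the shift (left) and adjusted (right), for all genes averaging 1 TPM or more, cytosolic ribosomal proteins, nuclear oxidative phosphorylation subunits and the 78 mitochondrial ribosomal proteins. The medians of the 3 groups lay at 0.98, 0.99 and 1.06 on the left and at 0.19, 0.016 and 0.59 on the right.

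Mitoribosomal proteins without an Mrpl or Mrps number also went both ways. Chchd1 was at 214 and 353 TPM and Gadd45gip1 at 71.7 and 181 TPM, both higher in the T29I library. Aurkaip1 was at 128 and 129 TPM. Dap3, a GTP-binding protein of the small subunit, was at 49.1 and 32.9 TPM, and Ptcd3, a pentatricopeptide repeat protein of the small subunit, at 50.5 and 11.5 TPM, both lower. Of these 5, 2 were 2-fold up and 1 was 2-fold down relative to the shift, against 26.0% and 22.2% of all genes. The 2 rRNAs of the mitochondrial ribosome, mt-Rnr1 and mt-Rnr2, were listed at 0 in both libraries, so the ratio of proteins to rRNA could not be formed. The libraries were depleted of ribosomal RNA, and whether depletion or later processing gave these values was not tested.

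Factors that build and serve the mitochondrial ribosome had lower median ratios than its proteins. Relative to the shift, the 27 genes for assembly and rRNA modification had a median of 0.71, with an adjusted median of -0.12. Of the 27, 9 were 2-fold up and 4 were 2-fold down relative to the shift, where the shares of all genes were 26.0% and 22.2%. Their highest ratios were those of Mpv17l2 at 22.3 and 54.7 TPM, Malsu1, which keeps immature large subunits from joining, at 9.95 and 21.6 TPM and Rpusd3, a pseudouridine synthase family member, at 25.6 and 48.7 TPM. The lowest were those of Fastkd2 at 30.4 and 3.30 TPM, the GTPase gene Gtpbp10 at 31.5 and 4.31 TPM and Ngrn at 69.3 and 14.7 TPM. The 17 genes for translation factors and mRNA partners had medians of -0.31 and 0.11, and 3 were 2-fold up and 3 were 2-fold down. The elongation factors Tufm and Tsfm were at 253 and 355 TPM and 43.1 and 53.8 TPM and the membrane insertase gene Oxa1l at 49.9 and 67.4 TPM. The initiation factor Mtif2 was at 17.6 and 1.60 TPM, the release factor Mtrf1 at 15.5 and 2.36 TPM and Lrpprc, which stabilises mitochondrial mRNAs, at 66.7 and 8.15 TPM.

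The genes that copy and transcribe mitochondrial DNA had lower TPM in T29I cells, and the mRNAs it encodes had a higher summed TPM there. All 13 genes for mitochondrial transcription, RNA processing and DNA upkeep had lower TPM there, as did 9249 of all 12943 genes averaging 1 TPM or more. The median of the 13 was -0.16 relative to the shift, beside 0.055 for all genes, and -0.25 after adjustment, beside 0.040. None was 2-fold up and 3 were 2-fold down relative to the shift, against 26.0% and 22.2% of all genes. The lowest ratios were those of Mterf1a at 12.2 and 0.496 TPM, the transcription factor gene Tfb2m at 28.0 and 5.18 TPM and Tfam, which packages mitochondrial DNA, at 71.8 and 17.4 TPM. The highest were those of the tRNA-processing gene Elac2 at 98.9 and 98.5 TPM, the RNA polymerase gene Polrmt at 34.7 and 34.2 TPM and Polg2 at 5.88 and 3.93 TPM. The 13 mRNAs that mitochondrial ribosomes translate summed to 107436 and 173389 TPM. As deposited, 6 were higher and 7 lower in the T29I library. Of the 13, 12 lay above the shift, against 51.4% of all genes, with a median of 0.41. Relative to the shift, 6 of the 13 were 2-fold up and 1 was 2-fold down, against 26.0% and 22.2% of all genes. After adjustment 12 lay above 0 and 7 were 2-fold up, against 51.5% and 17.6% of all genes, with a median of 1.03. These mRNAs are 204 to 1824 bases long with 31.9% to 41.1% GC, against medians of 3101 bases and 50.2% for all genes. How well the fit holds so far from those medians was not tested.

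**Figure D4:**
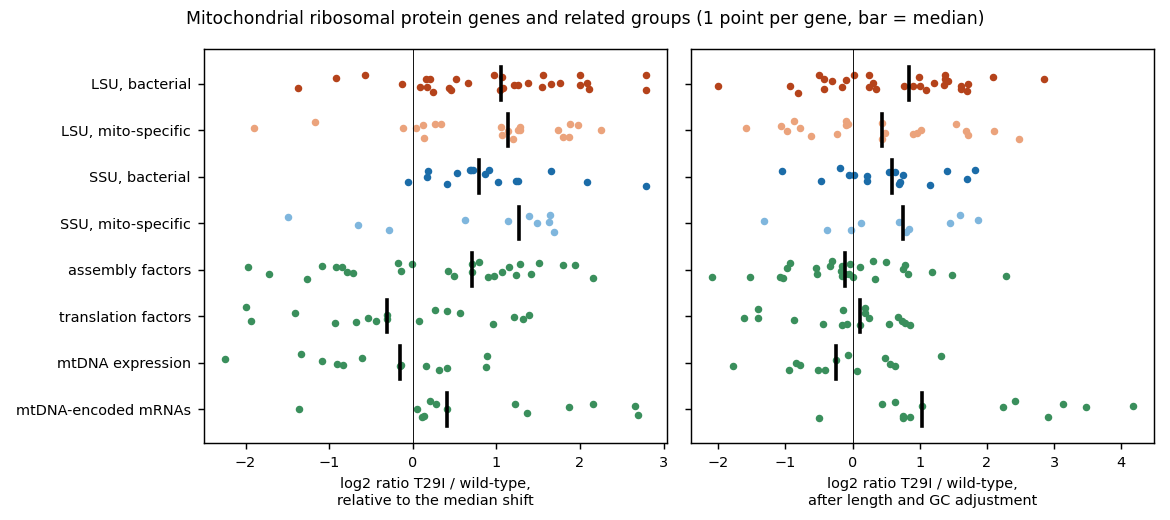
Log2 ratios of T29I over wild-type, 1 point per gene with a bar at the median, for the 4 groups of mitochondrial ribosomal proteins (LSU, large subunit; SSU, small subunit) and for genes of assembly, translation, mitochondrial DNA expression and upkeep, and mRNAs of the mitochondrial genome (mtDNA), relative to the shift (left) and adjusted (right). The 4 ribosomal groups had medians between 0.79 and 1.26 on the left, and assembly factors, translation factors and DNA expression genes 0.71, -0.31 and -0.16.

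Members lie on 17 chromosomes, and chromosome 11 holds the most. Of the 11 members there, 10 were 2-fold up relative to the shift, against 40.2% of all genes of that chromosome, among them the 3 with the highest ratios, Mrps24, Mrpl12 and Mrpl55. Their median was 1.80, or 0.90 after adjustment, beside 0.63 and 0.36 for the 832 genes of chromosome 11 averaging 5 TPM or more. On chromosome 17 the median of 8 members was 1.79, but 0.19 after adjustment, beside 0.33 and -0.062 for all genes of that chromosome. On chromosome 7, 5 of 6 members were 2-fold up, against 38.6% of all genes there, with a median of 1.52 beside 0.70 for all. The part of the chromosome in the members' ratios was not tested. Without the members on chromosome 11, 32 of 67 were 2-fold up and 4 were 2-fold down, against 26.0% and 22.2% of all genes. The median of these 67 was 0.91.

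**Figure D5:**
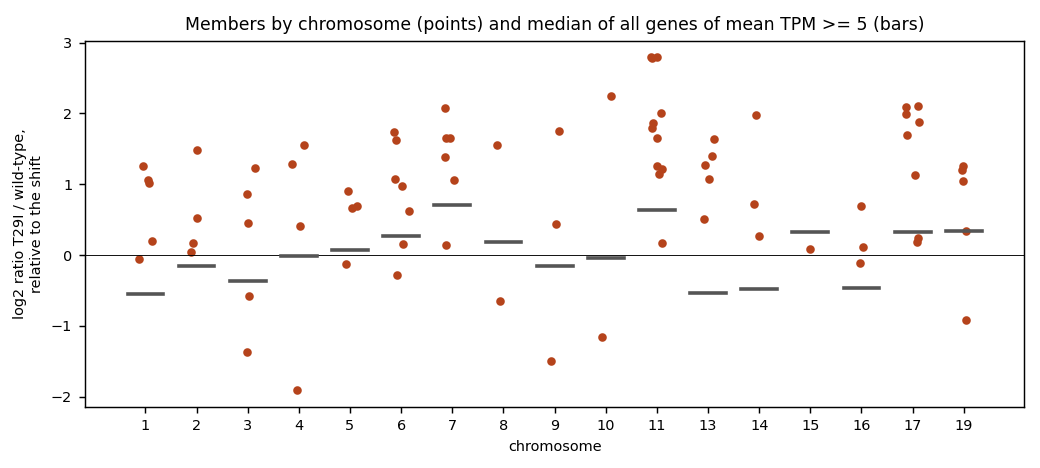
Log2 ratio (T29I over wild-type) relative to the shift for each member (points) by chromosome, with bars at the median of all genes of that chromosome averaging 5 TPM or more. The 11 members on chromosome 11 had a median of 1.80 and all genes there 0.63.

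Many members share a promoter region with a gene on the other strand. In the 1000 bases before their start, 18 of the 78 members, 23.1%, had the start of a protein-coding gene that runs the opposite way. The share was 10.5% among 12121 protein-coding genes averaging 1 TPM or more. Pairs of genes that overlap at their starts were counted in neither share. The member had the higher ratio in 14 of the 18 pairs, or 12 after adjustment, with medians of 1.10 for members and 0.065 for partners relative to the shift, and 0.30 and 0.034 after adjustment. Mrpl57 was at 23.2 and 50.1 TPM and its partner Ska3, a spindle protein gene 49 bases away, at 80.9 and 16.1 TPM. Mrpl50 and Zfp189, 83 bases apart, were both lower, at 108 and 14.6 TPM and 7.37 and 0.554 TPM. Mrpl54 and Apba3, 26 bases apart, were both higher, at 92.9 and 239 TPM and 29.7 and 67.6 TPM. These pairs were chosen after their values were seen. Mrps11 and Mrpl46 on chromosome 7, 2 members on opposite strands whose exons overlap over 173 bases, form a pair outside those 18. Mrps11 was at 39.2 and 90.3 TPM and Mrpl46 at 67.0 and 39.3 TPM, so this pair differed in direction as deposited, with 2.08 and 0.14 relative to the shift and 0.71 and -0.87 after adjustment.

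Reads of some members cannot be told from those of other genes. Exons of 28 members overlap a gene on the opposite strand and those of 8 a gene on the same strand, and whether reads were assigned by strand is not stated in the labels. The overlap was largest for Mrpl53, with 88.0% of its exons inside another gene on the same strand that held 1.12 and 0.209 TPM. On the opposite strand it was largest for Mrps25, with 69.8% of its exons shared with Nr2c2, which was at 7.03 and 0.355 TPM. Other neighbours held more reads. Mrpl47, at an estimated 906 and 217 reads, shares 10.2% and 13.9% of its exons with Actl6a and Ndufb5 on the opposite strand. These held 5436 and 2785 reads and 2538 and 1469 reads. On the same strand, Mrps34 shares 37.0% of its exons with Nme3, at 28.4 and 38.0 TPM. Mrps24 shares 15.4% with Urgcp, at 8.53 and 19.6 TPM. The part of such neighbours in the members' ratios was not tested. Without the 33 members that share exon bases with any other gene, 24 of 45 were 2-fold up relative to the shift and 3 were 2-fold down. The shares of all genes were 26.0% and 22.2%, and the median of these 45 was 1.04. Pseudogenes with at least 95% identity over at least 50% of the shorter sequence were found for 16 members, 21 in all, up to 99.8% identical for Mrps18b. The 20 of them that are listed stood at 0 in both libraries. How reads matching both a member and a copy were handled is not stated. These values of 0 therefore cannot show whether members lost or gained such reads.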

How the data were processed

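The values are TPM as the authors deposited them, in 1 table of genes with symbol and Ensembl identifier, and each column sums to 1000000. Isogen was used for RNA and the TruSeq Stranded Total RNA kit (Ribo-Zero depletion) for the libraries, per the labels' protocols. No aligner, counting tool or genome build is given in the sources used here. Sample descriptions tie columns to samples, and the genotype labels give the groups.

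Identifiers were matched to GENCODE M21 (GRCm38), which held 51633 of 51826 and all 78 members. Ratios were taken on the log2(TPM + 1) scale, the shift from genes averaging 5 TPM or more, and calls at 2-fold from 12943 genes averaging 1 TPM or more. The adjusted ratio was the residual of a second-order polynomial in log2 length and GC content, with their product, over 9100 protein-coding genes. TPM multiplied by merged exon length gave whole numbers of reads, within 0.05, for 80.9% and 79.8% of the values compared, where chance gives 10%, and an estimated depth of 16909986 reads in the wild-type and 15281656 in the T29I library. Intervals on TPM are exact Poisson 95% intervals of these reads, and those of ratios exact binomial ones. With 1 library per group no test was made. The procedures were tested on simulated data.

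Any member may be named within its role group, and the 6 highest and lowest by ratio, the 5 highest and lowest by adjusted ratio and the 5 most and least abundant were given ratios. Genes outside the members come from lists of related functions, 3 highest and 3 lowest each. The members and lists were chosen with earlier results of these data known. Copies were found with BLAST+ 2.17.0 and overlaps with bedtools 2.31.1, on Python 3.11.15 with numpy 2.4.6, pandas 2.3.3 and scipy 1.17.1. Alternatives were the ratios as deposited, the adjustment on 2 transcript definitions, another pseudocount, other filters, estimated reads and leaving out sets of members.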

Additional observations from a re-analysis of the deposited data

How the results depend on the processing

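No paired analysis was possible because each group has 1 library and the labels give no replicate numbers, and for the same reason no library could be left out. As deposited, 10 members were 2-fold up and 10 were 2-fold down, with a median of 0.16, in place of 42, 4 and 1.06 relative to the shift. The length and GC adjustment gave 27 higher and a median of 0.59, and with the principal transcript, an alternative chosen after seeing the data, 26 and 0.41. The adjustment turned the sign of 21 of the 78 member ratios, or 20 on the principal transcript. Among those 2-fold up it turned 5, to -0.16 for Mrpl14, -0.42 for Mrpl34, -0.094 for Mrpl38, -0.10 for Mrpl54 and -0.016 for Mrps34. On the principal transcript these were 6, at -0.11 for Mrpl14, -0.36 for Mrpl23, -0.36 for Mrpl34, -0.18 for Mrpl4, -0.071 for Mrpl54 and -0.52 for Mrps34. Without members that share exon bases with another gene, also chosen after seeing the data, 24 of 45 were higher and the log2 ratio of the sums was 0.32, against 0.40 for all 78. The latter was 0.16 without the members on chromosome 11, chosen likewise, 0.20 without the 5 most abundant, and 0.72 in estimated reads. The cause of these changes was not tested. With a pseudocount of 0.1 or estimated reads scaled to depth, 78 of 78 member ratios stayed within counting error of their value. Estimated reads differ from TPM by factors fixed for each gene and library, so only the pseudocount could move those ratios. A filter at a mean of 5 TPM, or no filter, cannot change a member's ratio, because the shift always came from genes averaging 5 TPM or more. Depth left every member with at least 123 estimated reads per library, but the spread between cultures of 1 genotype is unknown.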

Other observations

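The 13 mRNAs that mitochondrial ribosomes translate are cut from shared long transcripts, and as deposited they differed in direction, while 12 of the 13 lay above the shift. Higher as deposited in the T29I library were mt-Atp6 at 18624 and 44510.4 TPM, mt-Co1 at 18495 and 36352 TPM, mt-Co3 at 11592 and 39428 TPM, mt-Nd3 at 3384 and 11758 TPM, mt-Atp8 at 11209.9 and 14020.4 TPM and mt-Nd6, the one encoded on the other strand, at 1944 and 2687 TPM. Lower were mt-Co2 at 13799 and 8549 TPM, mt-Cytb at 6251 and 3479 TPM, mt-Nd1 at 10261 and 5946 TPM, mt-Nd2 at 3841 and 2737 TPM, mt-Nd4 at 3547 and 2096 TPM, mt-Nd4l at 2481 and 519.9 TPM and mt-Nd5 at 2007 and 1307 TPM. The genes mt-Nd4l and mt-Nd4 lie on 1 mRNA with overlapping reading frames, so reads in the overlap cannot be assigned to either, and had log2 ratios, as deposited, of -2.25 and -0.76. The first values are those of the wild-type library, and no replicate check was possible.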
